A study of Drosophila melanogaster with 2 samples.

Results

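The nuclear genes for subunits of the mitochondrial respiratory chain and ATP synthase were examined for binding of tailup (tup), an Islet-type LIM-homeodomain transcription factor of the fly. Members were taken by symbol alone, as protein-coding genes on the nuclear chromosome arms whose names start with ND-, UQCR, COX and a digit, or ATPsyn, which gave 80 of 13968 protein-coding genes. By complex, 40 genes were of complex I, 9 of complex III, 16 of complex IV and 15 of complex V. Of the 80, 21 were taken as paralogs of another subunit gene, by a symbol ending in L or in L and a digit, and 59 were not. ND-MNLL was excepted and counted among the 59. The data came from ChIP-seq with an anti-GFP antibody on whole Drosophila melanogaster embryos aged 0 to 24 h, sexes pooled, in which a transgene stably supplied tup tagged at its C terminus with GFP. All samples formed 1 group of 2 biological replicates, so there was no contrast between conditions and no untagged group among the lists used. The labels do not say which regulatory sequence drove the transgene or which cells expressed it, and whole embryos mix all tissues. A control experiment entered the peak calling and was not analysed here.

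The respiratory chain passes electrons from NADH through complex I, ubiquinone, complex III and cytochrome c to complex IV, and the resulting proton gradient drives ATP synthase, complex V. Most of its subunits are encoded in the nucleus and imported, so nuclear and mitochondrial genomes must be expressed in step. In Drosophila many of these genes have a paralog, and a number of the paralogs are known for expression in the testis. tup itself is known for roles in the dorsal ectoderm, the heart and motor neurons.

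Sequences are shown for the strongest optimal summit within 1 kb of a member's start in complexes I, IV and V, to show what lies under the summits that the counts near starts rest on. Among summits within that distance, ND-51 is added as the strongest intergenic one whose nearest start was the member's own. It too lay between 2 genes, ND-51 and the opposite-strand gene CG13994. Optimal peaks are the authors' list thresholded on reproducibility between replicates, and a summit is the position of highest signal in a peak. Complex III had no optimal summit within 1 kb of a start. Each sequence is the summit base with 50 bases on either side, on the plus strand of dm6 in RefSeq's copy of that assembly, read 5′ to 3′, and none overlaps an annotated untranslated exon. Capitals mark matches to the 10 motifs described further on.
ND-ASHI and Fum1, chrX:6679342-6679442: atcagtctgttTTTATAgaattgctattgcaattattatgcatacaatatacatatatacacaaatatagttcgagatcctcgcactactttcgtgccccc
ND-51, chr2L:6062815-6062915: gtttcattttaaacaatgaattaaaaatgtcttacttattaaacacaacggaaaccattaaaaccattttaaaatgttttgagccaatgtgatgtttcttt
COX5B and IFT52, chr2L:6557513-6557613: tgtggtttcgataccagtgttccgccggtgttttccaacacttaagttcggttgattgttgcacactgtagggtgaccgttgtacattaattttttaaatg
ATPsynE, chr3R:14327818-14327918: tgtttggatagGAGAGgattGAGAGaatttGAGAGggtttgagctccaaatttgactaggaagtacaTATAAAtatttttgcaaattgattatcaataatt
The ND-ASHI window held 1 TATA-type match, the ATPsynE window held 3 GAGA matches and 1 TATA-type match, and the ND-51 and COX5B windows held none.

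The share of subunit genes with an optimal summit near a start was close to that of all coding genes. Of the 80 genes, 13 (16.2%, Wilson 95% interval 9.75 to 25.8) had an optimal summit within 1 kb of one of their own transcript starts, against 13.3% of all 13968 protein-coding genes (1857 genes). In the wider region from 5 kb upstream of the gene to its end, 21 of the 80 (26.2%, interval 17.9 to 36.8) had an optimal summit, against 22.8% of coding genes. The median length of that region was 6092 bp for subunit genes and 7164 bp for coding genes. Both intervals include the share of coding genes, so neither count sets the subunit genes apart. In all, 22 genes had an optimal summit by one or the other definition and 58 by neither.

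With weaker candidates included, the shares were again close. The authors also deposited a list of 30000 candidate peaks called on both replicates pooled. A pooled candidate summit lay within 1 kb of a start in 45 of the 80 genes (56.2%), against 57.3% of coding genes, and in the wider region in 67 of them (83.8%), against 83.8% of coding genes. Of the genes with a pooled candidate within 1 kb, 28.9% of subunit genes also had an optimal summit there, against 23.2% of coding genes. The optimal list held 2241 peaks and consisted of the 2241 strongest pooled candidates, so it equals a threshold on the pooled signal, which lay at 68.7.

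**Figure D1:**
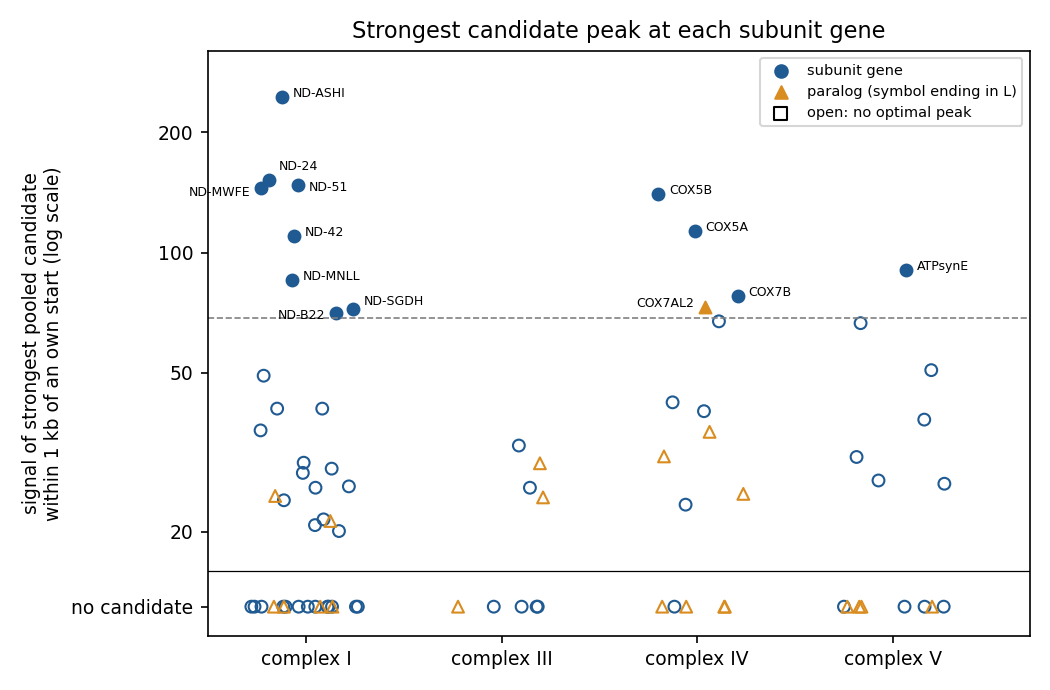
Signal value (caller's units, log scale) of the strongest pooled candidate within 1 kb of an own start for each of the 80 genes, by complex. Circles are subunit genes, triangles are paralogs, filled symbols have an optimal peak, and the dashed line is the lowest optimal signal of 68.7. The 35 genes without a candidate are in the strip at the bottom, and ND-ASHI stands highest at 245.

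By complex, complex IV had the highest share and complex III the lowest, in groups too small to separate. Within 1 kb of a start, an optimal summit was found in 8 of 40 complex I genes (Wilson interval 10.5 to 34.8%). In complex III the count was 0 of 9 (interval 0 to 29.9%). In complex IV it was 4 of 16 (25.0%, interval 10.2 to 49.5) and in complex V 1 of 15 (6.67%, interval 1.19 to 29.8). In the wider region, where the share of coding genes was 22.8%, the counts were 10 of 40 in complex I (25.0%, interval 14.2 to 40.2), 1 of 9 in complex III (11.1%, interval 1.99 to 43.5), 7 of 16 in complex IV (43.8%, interval 23.1 to 66.8) and 3 of 15 in complex V (interval 7.05 to 45.2%). The interval of complex IV thus began just above the share of coding genes. Its 7 genes included COX5BL and COX7CL, each counted for a peak also counted for COX5B or COX7C. Without the paralogs the count was 4, but out of fewer than 16 genes, and the share was not lower. With single replicates the complex III count was 0 to 2 and the complex V count 1 to 3. The 4 intervals overlap one another in both measures, and no test between complexes was made.

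**Figure D2:**
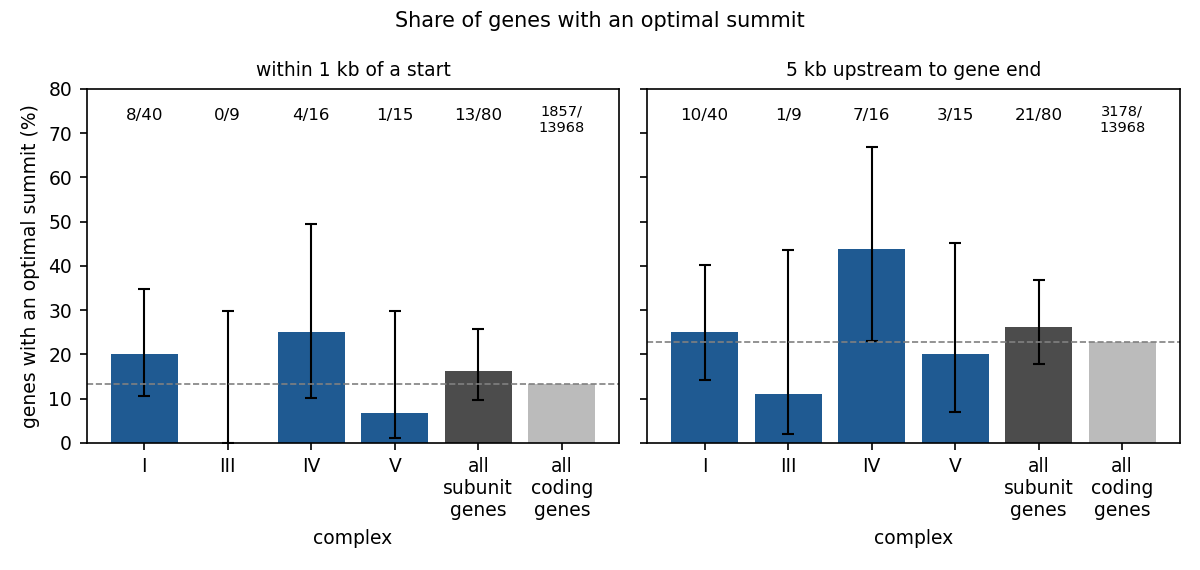
Percent of genes with an optimal summit within 1 kb of an own start (left) and from 5 kb upstream to the gene end (right). Bars with Wilson 95% intervals are complexes I, III, IV and V and all 80 subunit genes, the grey bar and dashed line are all coding genes (13.3% and 22.8%), and counts stand above the bars. The bars for all subunit genes (16.2% and 26.2%) have intervals that span the dashed lines.

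Complex I oxidises NADH and is the largest of the complexes. Its strongest optimal peak within 1 kb of a start lay between the divergent starts of ND-ASHI, which encodes the fly counterpart of the human membrane-arm subunit NDUFB8, and of Fum1, a fumarase gene of the citric acid cycle (X 6679290 to 6679476, signal 245, rank 186). The summit was 274 bp upstream of the ND-ASHI start and 248 bp from the nearest Fum1 start, in an intron of a longer Fum1 transcript. The same site ranked 168 in replicate 1 (signal 161) and 223 in replicate 2 (signal 89.7). Signal values are the authors' and are comparable only within a list.

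The NADH-binding module of complex I was represented by ND-24 and ND-51, the counterparts of NDUFV2 and NDUFV1. The ND-24 peak (X 17631966 to 17632349, signal 152, rank 524) had its summit 69 bp inside the gene, in its 5′ untranslated exon. Replicate 1 placed a summit there (signal 109, rank 406), while the nearest summit of replicate 2 lay 111 bp away (signal 46.2, rank 901). At ND-51 the peak (2L 6062673 to 6063056, signal 148, rank 556) had its summit 108 bp upstream of the start and ranked 649 in replicate 1 (signal 88.5) and 789 in replicate 2 (signal 49.8). A far stronger peak in the ND-51 region (signal 559.7, rank 22) lay 3356 bp upstream, 26 bp from the start of CG9147. Both genes thus had an optimal summit nearest to their own start, but an opposite-strand start of another gene lay close to each. These were corolla, 111 bp from the ND-24 summit, and CG13994, 124 bp from that ND-51 summit. The strongest signal counted for ND-51 lay at another gene. ND-75, of the same module (NDUFS1 in human), had a best pooled candidate of signal 25.8 within 1 kb.

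The remaining complex I sites were mostly weaker or nearer to a neighbour. ND-42, the counterpart of NDUFA10, had a peak (3R 22027268 to 22027651, signal 110.2) whose summit was 249 bp upstream of its start but 20 bp from the start of Cchl, which encodes cytochrome c heme lyase, and it ranked 509 in replicate 1 and 22606 in replicate 2 (signal 9.08). ND-MWFE, the counterpart of NDUFA1, had a peak of signal 145 with its summit 148 bp upstream, 73 bp from the start of the peptidase gene TppII, and was the one complex I site that ranked higher in replicate 2 (309, signal 77.0) than in replicate 1 (1144, signal 65.9). ND-MNLL had a peak of signal 85.4 that was 40 bp upstream of a start shared with CG45089. It ranked 1125 in replicate 1 (signal 66.5) and 3437 in replicate 2 (signal 21.5).

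ND-SGDH and ND-B22, counterparts of NDUFB5 and NDUFB9, lay just inside the threshold with signals of 72.1 and 70.6. The ND-SGDH summit, 71 bp upstream of its start, ranked 2368 in replicate 1 (signal 45.3) and 2522 in replicate 2 (signal 25.3), so it was among the strongest 2241 of neither replicate. The ND-B22 summit, 30 bp inside the gene, ranked 1405 in replicate 1 (signal 58.9) and 27369 in replicate 2 (signal 8.23). The ND-B22 region also held a peak of signal 278 (rank 134) 2888 bp upstream, at the start of CG6565.

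Complex IV, cytochrome c oxidase, reduces oxygen to water. COX5B and COX5A, which encode subunits conserved across animals, had its strongest sites within 1 kb of a start. The COX5B peak (2L 6557371 to 6557754, signal 140.1, rank 628) had its summit 237 bp upstream of COX5B and 61 bp from the start of IFT52, an intraflagellar transport gene, and ranked 767 in replicate 1 (signal 80.3) and 570 in replicate 2 (signal 58.4). The same peak lay 1868 bp upstream of the neighbouring paralog COX5BL and was the only optimal peak counted for COX5BL. At COX5A the peak (3R 11819341 to 11819724, signal 113, rank 954) had its summit 66 bp upstream of the nearest start. That summit was inside the gene, in an intron downstream of the other COX5A start. It ranked 891 in replicate 1 (signal 74.2) and 1178 in replicate 2 (signal 39.6). Both sites were thus among the strongest 2241 in each replicate.

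COX7B had a peak of signal 78.1 (3L 17425142 to 17425525) 143 bp upstream of its start and 117 bp from the start of Sec3, an exocyst gene, ranking 2163 in replicate 1 (signal 47.5) and 1602 in replicate 2 (signal 32.9). COX7AL2 was the only paralog with an optimal summit within 1 kb, 561 bp inside the gene (signal 72.9), with a replicate 1 summit of signal 70.1 and none in replicate 2 within 100 bp. Its region held 3 more optimal peaks upstream, of signals 156, 122 and 270.3, at 1486, 3371 and 4470 bp from its start. COX7C and its paralog COX7CL shared 1 optimal peak of signal 78.6, 1884 bp and 3879 bp upstream of their starts, in an intron of oys. COX6B lay just outside the threshold (signal 67.3, pooled rank 2322), with its summit 61 bp upstream and a rank of 3398 in replicate 1 and 1960 in replicate 2. COX7C (signal 42.2) and COX8 (signal 40.1) had weaker candidates within 1 kb.

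Complex V makes ATP. ATPsynE, the gene for the small membrane subunit e, was the only complex V gene with an optimal summit within 1 kb. That summit (3R 14327676 to 14328059, signal 90.3, rank 1410) was 800 bp downstream of the nearer of the 2 ATPsynE starts. It lay past the end of the gene and nearer to the start of another gene. Replicate 1 held a summit there (signal 78.3, rank 800), and the nearest replicate 2 summit was 859 bp away. That replicate 2 candidate (signal 39.2, rank 1204) was 59 bp upstream of the same start, but inside the gene, downstream of the other start. The strongest candidates of the replicates thus lay near opposite ends of the gene.

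Optimal peaks elsewhere in the region were counted for ATPsynC, which encodes the c-ring subunit (rank 1141, 2909 bp upstream), ATPsynO, the stalk subunit OSCP (signal 74.0, 2086 bp upstream), and ATPsynCF6, coupling factor 6 (signal 72.3, 1172 bp upstream). The ATPsynO peak was 47 bp from the shared starts of Set, Su(var)3-9 and eIF2gamma. Within 1 kb, ATPsynB had a candidate just outside the threshold (signal 66.6, pooled rank 2352) whose summit was 43 bp upstream, ranking 1738 in replicate 1 and 9272 in replicate 2. ATPsynC (signal 50.8) and ATPsynO (signal 38.2) followed. ATPsynbeta, the catalytic subunit on chromosome 4, had no candidate within 1 kb in the pooled list or in either replicate.

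Complex III passes electrons to cytochrome c. None of its 9 genes had an optimal summit within 1 kb, and the strongest pooled candidates there were at UQCR-14 (signal 32.9), UQCR-6.4L (29.7) and UQCR-Q (25.8), all below the optimal floor of 68.7. The one optimal peak in a complex III region, at UQCR-C1, a core protein gene, had a signal of 93.4 and lay 4110 bp upstream, in the 5′ untranslated exon of Rrp6. In complex I, optimal peaks elsewhere in the region were counted for ND-15 (signal 108, 3214 bp inside, in a coding exon of CG4822) and ND-B16.6 (signal 74.5, 3389 bp upstream, in an intron of the citrate synthase gene kdn). ND-39 (signal 49.2), ND-B12 and ND-13B (signal 40.7 each) had the strongest complex I candidates without an optimal peak.

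Genes without an optimal summit differed in how little signal they had. Among the 32 genes with a pooled candidate but no optimal summit within 1 kb, the rank of the best candidate ran from 2322 (COX6B) to 29468 (ND-15), with a median of 12666. A further 35 genes had no pooled candidate within 1 kb, and 13 had none in the wider region. Those 13 included ATPsynF, ATPsynGL, COX6CL, COX7A, COX7AL, ND-19, ND-20, ND-24L, ND-AGGG and ND-B14.5B. In 19 genes neither replicate had a candidate within 1 kb. Because each list holds its 30000 strongest candidates, a missing candidate says only that signal fell below the end of that list.

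The sites were next compared between replicates. All 13 optimal peaks within 1 kb of a member had a replicate 1 summit within 100 bp, and 10 had a replicate 2 summit. Among the 2241 strongest peaks of each replicate, 12 of the 13 were found in replicate 1 and 6 in replicate 2, and these 6 were in both. Sites in the top of both replicates were those of ND-ASHI, ND-51, ND-MWFE, COX5B, COX5A and COX7B. Of the other 7, 6 were in the top of replicate 1 only and the ND-SGDH site in neither. For ND-24, replicate 2 did have a top summit, 111 bp from the pooled one. Counted over genes with the strongest 2241 peaks of a replicate, 14 of 80 had a summit within 1 kb in replicate 1 (17.5%, against 13.3% of coding genes) and 10 of 80 in replicate 2 (12.5%, against 12.6% of coding genes), with 8 genes in both. Genes without an optimal summit within 1 kb that were reached this way were ATPsynB and ATPsynC in replicate 1 and COX6B in replicate 2. The depth of each replicate is unknown, and its part in the difference was not tested.

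**Figure D3:**
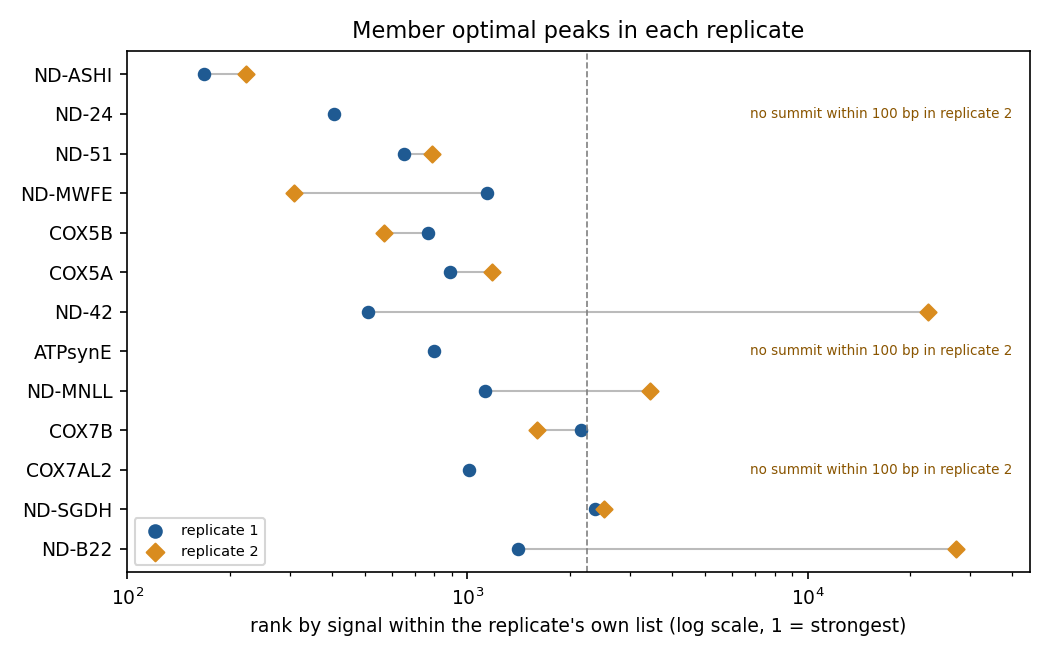
Rank by signal (log scale, 1 is strongest) of the 13 member optimal peaks within each replicate's own list, for summits within 100 bp, ordered by pooled signal. Circles are replicate 1, diamonds replicate 2, and the dashed line is rank 2241. Left of the line lie 12 circles and 6 diamonds, and ND-42 and ND-B22 rank 22606 and 27369 in replicate 2.

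Most of the 13 peaks lay at divergent gene pairs, and most coding genes with an optimal summit within 1 kb also had an opposite-strand start there. The shares over coding genes count genes and not peaks, so a peak at a pair can count once for each of its genes. In 10 of the 13 (76.9%) an opposite-strand coding start lay within 1 kb of the summit, against 61.3% of the 1857 coding genes with an optimal summit within 1 kb, taking the strongest such summit of each gene. All 10 pairs were head to head, with starts 42 bp (ND-24 and corolla) to 522 bp (ND-ASHI and Fum1) apart and a median spacing of 232 bp. In 8 of the 13 (61.5%) the summit fell between both starts of such a pair, against 48.7% of those coding genes. Only the start of each gene nearest to the summit was used for this. The summit was nearest to the member's own start in 7 of the 13 (53.8%, against 66.5%) and to another gene's in 6, among them Fum1, Cchl, TppII, IFT52 and Sec3. Distances to the own start ran from 30 to 800 bp, with a median of 143 bp, and 11 were within 300 bp (84.6%, against 73.5%). With 13 peaks, none of these shares sets the members apart, and no test was made. Of the summits, 6 were intergenic, 4 in 5′ untranslated exons and 3 in introns. The introns were of Fum1, TppII and COX5A, each a gene of its pair, so these summits did not lie outside both genes. A ChIP peak between divergent starts cannot be assigned to one gene of the pair from these lists.

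**Figure D4:**
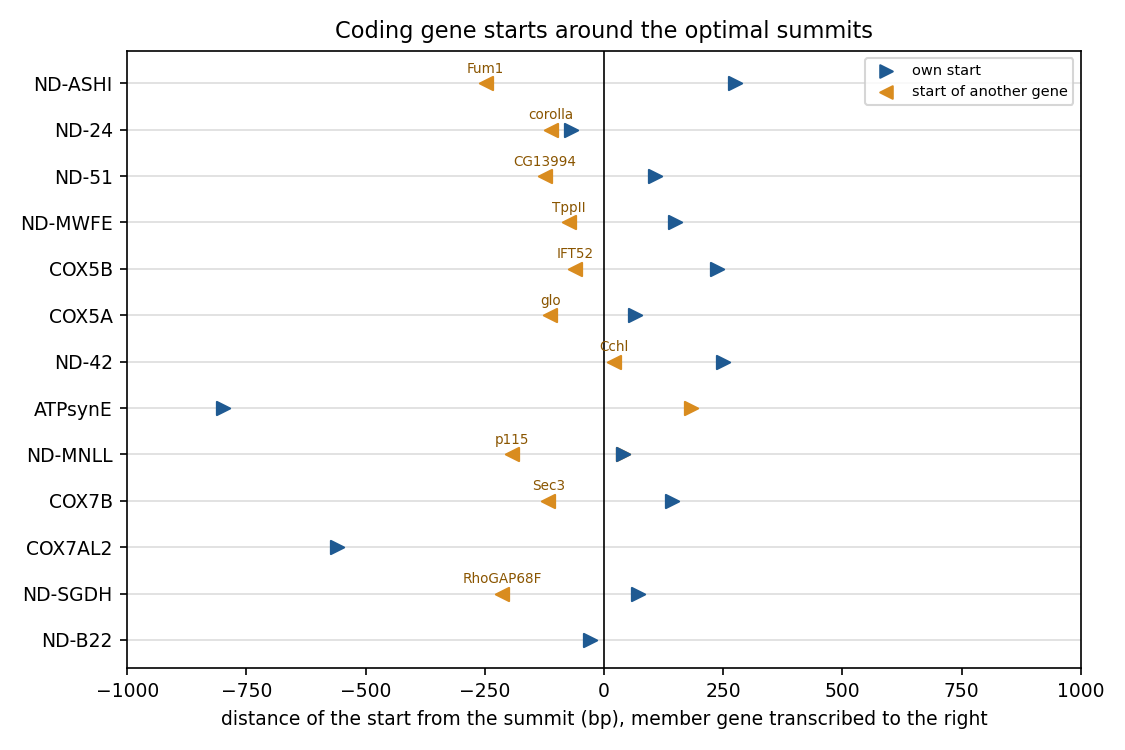
Position of coding gene starts (bp, summit at 0) within 1 kb of the 13 optimal summits, with only the nearest start of each gene drawn. Each row is turned so that the member gene is transcribed to the right, and rows are ordered by signal. Blue arrowheads are own starts and orange ones other genes' starts, pointing in the direction of transcription, with names for opposite-strand neighbours. In 8 rows the summit lies between a pair of starts that point away from each other.

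Across the whole group, 42 of 80 subunit genes (52.5%) had an opposite-strand coding start within 1 kb of their own, against 36.8% of coding genes. Subunit genes with such a neighbour had an optimal summit within 1 kb in 11 of 42 cases (26.2%), against 23.9% of coding genes with one. Without such a neighbour the share was 2 of 38 (5.26%), against 7.09% of coding genes without one. The start of a neighbour also brings its own peak within reach of the 1 kb window, and its part in these shares was not tested.

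**Figure D5:**
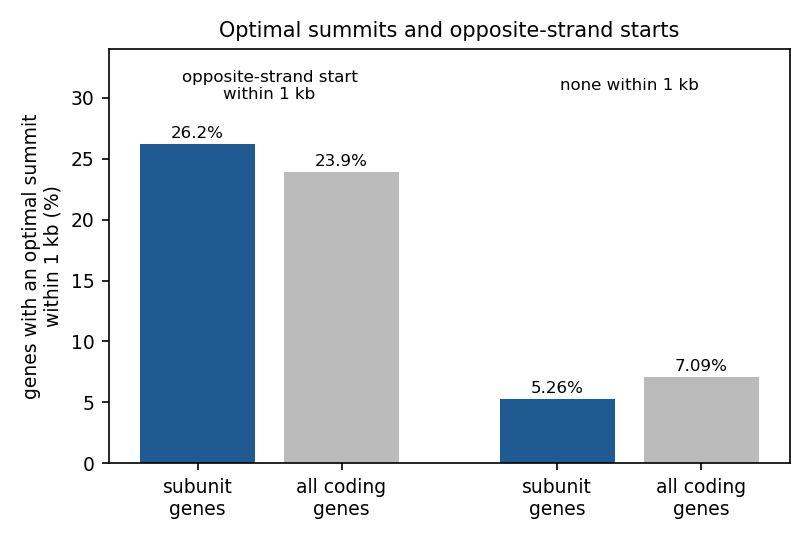
Percent of genes with an optimal summit within 1 kb of an own start, split by whether an opposite-strand coding start lay within 1 kb. Blue bars are the 80 subunit genes and grey bars all coding genes. Shares were 26.2% and 23.9% with such a start and 5.26% and 7.09% without one.

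The paralogs were then set beside the other members, without a test between them. An optimal summit lay within 1 kb in 1 of 21 paralogs (4.76%, Wilson interval 0.846 to 22.7) and in 12 of the 59 other members (20.3%, interval 12.0 to 32.3), with overlapping intervals. Both intervals include the 13.3% of all coding genes. A pooled candidate lay there in 8 of 21 (38.1%) and 37 of 59 (62.7%), against 57.3% of coding genes. An opposite-strand coding start lay within 1 kb in 3 of 21 paralogs and 39 of 59 other members, against 36.8% of coding genes. Being a paralog thus mostly went with lacking such a start, and the part of each in these shares was not tested. In the top 2241 peaks of replicate 2, 0 of 21 paralogs had a summit within 1 kb (Wilson interval 0 to 15.5%), against 12.6% of coding genes.

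The heights of the 13 peaks were close to those of optimal peaks at other coding starts. Their signals ran from 70.6 to 245 with a median of 110.2, against a median of 109 over the 1360 optimal peaks within 1 kb of a coding start and of 102 over all optimal peaks. In windows of 50 bases on either side of the 13 summits the median A+T content was 68.3%, against 66.3% over all 2241 optimal summits.

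Promoters, taken as 250 bases before to 50 bases after the most upstream start, were searched on both strands for 10 short motifs, the letters of which can overlap. The motif 1 core GTCACAC, of the type found at many housekeeping promoters, was in 15 of 80 member promoters (18.8%), against 9.47% of coding promoters. The DRE core ATCGAT, bound by DREF, was in 24 of 80 against 23.3%. The TATA box letters TATAAA were in 53.8% against 45.8%, the homeodomain core TAATTA in 23.8% against 20.4%, and CTAATG, a LIM-homeodomain type site, in 8 of 80 against 10.4%. GAGAG was in 21.2% against 29.7%, and GCCAT, the pho core, in 28.8% against 41.2%. The remaining 3, the E-box CACGTG (4 of 80 against 4.20%), the NRF-1-type palindrome TGCGCA (6 of 80 against 6.95%) and the ETS core CCGGAA (3.75% against 6.77%), were in few promoters. A match of letters is a description and not a site.

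In the windows around the 13 summits, any of the 10 motifs was found in 6 of 13 (46.2%), against 53.3% of the 2241 optimal windows. TATAAA was in 5 of 13 (38.5% against 21.8%), which with 13 windows is a small count. TAATTA was in 1 of 13 (7.69% against 9.28%), as were GAGAG (against 10.1%) and GCCAT (against 15.4%). CTAATG was in 0 of 13 windows, against 4.55% of all optimal windows. The sequences printed above show this for ND-51 and COX5B, which held no match at all.

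Other genes of the pathway were counted in the same way. Of 16 respiratory chain genes outside the symbol rule, 3 had an optimal summit within 1 kb (18.8%, against 13.3% of coding genes), blw, which encodes the ATP synthase alpha subunit (signal 121, 65 bp from its start), levy, a complex IV subunit gene (86.7), and Cyt-c-d, a cytochrome c gene (246, 119 bp from the start of CG31808). None of the 6 complex II genes of that list (SdhA, SdhAL, SdhB, SdhBL, SdhC and SdhD) had one within 1 kb or in the wider region. Of 15 citric acid cycle genes, 4 had one, Fum1 (the peak shared with ND-ASHI), Idh3g (215), mAcon1 (124) and Pdhb (115). The levy, mAcon1 and Pdhb summits were each nearer to the start of another gene than to their own. Of 12 regulators of mitochondrial genes, 1 had one, mtSSB, the mitochondrial single-stranded DNA-binding protein gene (124), while ewg, the fly counterpart of human NRF1, had none. For comparison, 13 of 73 mitochondrial ribosomal protein genes (17.8%) and 37 of 92 cytosolic ribosomal protein genes (40.2%) had an optimal summit within 1 kb. The differences from the subunit genes (16.2%) were not tested. In the wider region, where the share of coding genes was 22.8%, an optimal summit was counted for 6 of the 16 respiratory chain genes (37.5%), 5 of the 15 citric acid cycle genes (33.3%) and 4 of the 12 regulators (33.3%), again without a test. The strongest of those peaks, at PolG2, an accessory subunit of the mitochondrial DNA polymerase, had a signal of 672 and lay 117 bp from the start of CenG1A. The Cyt-c-d peak was also counted for Cyt-c-p in the wider region, as 1 of 2 there.

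Counts per chromosome arm were small. An optimal summit within 1 kb was found for 4 of 16 members on 2L, 1 of 15 on 2R (ND-MWFE), 2 of 19 on 3L, 3 of 16 on 3R, 3 of 12 on X and 0 of 2 on chromosome 4. Every Wilson interval of these shares overlapped the others and included the 13.3% of coding genes over all arms. Shares of coding genes were not counted per arm.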

How the data were processed

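The deposited files were narrowPeak lists in dm6, per the files deposited with each sample: 1 candidate list per replicate and 1 on both replicates pooled, each called with a control alignment, and an optimal list thresholded by the irreproducible discovery rate. Caller, aligner, versions and discovery rate threshold were not given in the sources read. Values taken were the signal of each peak, as deposited by the authors on a scale that differs between lists, and the summit offset. Lists in dm3 were not used. Labels give sonication to 200 to 800 bp.

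Genes and transcript starts came from Ensembl release 115 (BDGP 6.54), without transposable elements, and sequence from RefSeq's copy of Release 6. No peak ended past a chromosome end (0 peaks). Summits were counted within 1 kb of any own start and from 5 kb upstream to the gene end, strand aware, over all coding genes, with Python 3.11.15, pandas 2.3.3, numpy 2.4.6 and scipy 1.17.1. The counting was tested on simulated data. No significance test was made, because there is 1 group and only peak lists. Depth is unknown. Wilson intervals over genes cover counting error only. Genes that share a peak are not independent.

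Named were all members with an optimal summit, the 3 strongest others per complex, up to 10 without a candidate in the region, and the nearest gene of each peak, 1 of which is not reported here. ND-75, ATPsynbeta, CG13994, corolla, the ND-51 sequence and the genes named from the pathway lists were added after their values were seen. The members and lists were chosen with earlier results of these data known. Of the listed names, 2 (tam and Nc73EF) had no single match. The planned NRG element was not reported, because its letters could not be checked here.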

Additional observations from a re-analysis of the deposited data

How the results depend on the processing

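Of the 10 alternatives for optimal summits within 1 kb, 9 gave 10 to 17 genes, against the 13 reported. Over these settings the share of coding genes also moved, between 9.30% within 250 bp of a start and 21.3% with 2 times as many peaks. The one past 1.5 times was a list of optimal peaks above the median signal, which left 7 genes (7.68% of coding genes). Each replicate alone gave 10 to 14 genes. In the wider region (21 genes), the gene body alone left 5 (7.04% of coding genes) and peaks above the median left 11 (13.1%), while each replicate alone gave 14 to 21. The 14, from replicate 2 alone, is 17.5% of members, against 21.8% of coding genes, and so lies on the other side of that share from the count reported. Pooled candidates within 1 kb (45 genes) fell to 26 within 250 bp of a start, against 31.8% of coding genes. The median signal of member peaks (110.2) was 42.9 to 72.1 in the lists of single replicates, whose scales differ by construction. Summits nearest to their own start (7) numbered 3 among peaks above the median, 12 with 2 times as many peaks and 5 to 9 in single replicates. Complex V had 0 genes within 500 bp of a start and 3 with replicate 1 alone. Complex I had 5 with replicate 2 alone.

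Motif shares moved from the 300 bases of the promoter to the summit window (50 bases on either side), which is shorter and covers only 13 sites: TATA box 38.5%, homeodomain core, GAGA core and pho core 7.69% each, and DRE core, E-box, NRF-1-type palindrome, ETS core, motif 1 core and LIM-homeodomain type 0%. Added after seeing the data, matching by any overlap found 12 of 13 sites in replicate 2 rather than 10. Also added then, a 500 bp limit for opposite-strand starts kept 39 of 42 genes and gave 11 with an optimal summit. Under that limit the share of coding genes with such a start fell from 36.8% to 27.8%. No paired analysis was possible because both replicates belong to 1 group.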
